A study of Saccharomyces cerevisiae with 17 samples.

Results

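The genes described here are 10 regulators that carry a yeast cell from G1 into S phase, followed across 17 expression arrays of Saccharomyces cerevisiae grown on the ground or in microgravity. They were chosen by name as the cyclins of G1 together with their transcriptional activators and inhibitors, and they are CLN1, CLN2, CLN3, PCL1, PCL2, SWI4, SWI6, MBP1, WHI5 and SIC1. They make up 10 of the 5449 S. cerevisiae genes measured. The choice followed readouts of the same arrays: the flight differences of CLN1 in the FLO1 strain, and of CLN1 and CLN2 in the strain labelled BY4742::FLO8, were known when the group was drawn up. Flight differences in those 2 strains, and every comparison that sets one of their groups against another group, are therefore given for all members as descriptions without p. Where counts of calls in them are printed beside the share of all genes, nothing is read from them. The test is kept for the flight difference in wild type. Its spread per gene is pooled over all 17 arrays, so the arrays of those 2 strains still enter its SE, interval and p.

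All 3 strains share the BY4742 background, an alpha mating type haploid used in many laboratories. They are the wild type (WT), a strain overexpressing the flocculin FLO1 (FLO1 strain), and a strain labelled BY4742::FLO8 (FLO8 strain). How the FLO1 and FLO8 strains were built, from which promoter the genes are driven and how many clones were used are not given in the sources used here. Cells entered the flight module in saline, received rich medium 5 days after launch and grew for 72 h at 23 °C aboard the International Space Station, and a later ground culture was run in an incubator at the temperatures logged in flight. All cultures were filtered and fixed in RNAlater. There were 3 arrays in each of the 6 groups of strain and condition except FLO1 microgravity, which had 2. Nothing in the labels says that replicates came from separate cultures, so the p-values measure the spread between these arrays, which may be technical. Because the ground cultures were run after the flight, the time of culture and the condition cannot be told apart.

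Entry into the cell cycle, called Start in budding yeast, works as a chain. The cyclin Cln3 with the kinase Cdc28 removes the inhibitor Whi5 from the transcription factor SBF, made of Swi4 and Swi6, which switches on CLN1, CLN2, PCL1 and PCL2, while the related factor MBF, made of Mbp1 and Swi6, drives genes of DNA replication. Cln1 and Cln2 with Cdc28 then mark the inhibitor Sic1 for destruction, which frees the B-type cyclins to start S phase. Starved and stationary cells stop in G1 before Start, and the transcripts of CLN1, CLN2, PCL1 and PCL2 rise and drop once in each division.

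All 10 genes had 1 probe set each, with the plain suffix of a probe set designed for a single gene, and all 10 had a mean level above background, taken as 4.56 log2 (the 95th percentile of the mean levels of 1746 fission yeast probe sets on the same array). CLN1 and CLN2, like PCL1 and PCL2, are paralogs, and how far a probe set reads the partner was not tested. The strain labels were checked on 3 genes: FLO1 read 12.52 to 12.90 log2 in the FLO1 strain against at most 10.64 elsewhere, FLO11 read at least 11.24 in the FLO8 strain against at most 9.48 elsewhere, and FLO8 itself read lower in the FLO8 strain (7.58 to 8.31) than in the other strains (8.85 to 9.51). The 4 alpha-specific genes had mean levels of 10.14 to 12.04 log2, and the 6 a-specific genes, which mark the opposite mating type, 6.61 to 9.66, with 0 of them below background. Flight arrays lay 0.26 to 0.58 log2 from their group mean (root mean square over genes) and ground arrays 0.097 to 0.34, ranges that overlap through WT ground replicate 3. The 3′ minus 5′ difference of 7 control genes, a measure of RNA quality, was 1.15 to 1.41 log2 on flight arrays and 1.02 to 1.19 on ground arrays, so it moved with condition.

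CLN1 and CLN2, the paired cyclins that carry cells through Start, read lower on every flight array than on every ground array on the deposited scale, whatever the strain. CLN1 (YMR199W) read 8.98, 9.35 and 8.80 log2 on the 3 WT ground arrays and 8.30, 8.19 and 7.79 on the 3 WT flight arrays. In the FLO1 strain it read 9.05, 9.07 and 9.37 on the ground and 7.79 and 7.94 in flight. In the FLO8 strain it read 9.47, 9.65 and 9.13 on the ground and 8.57, 8.51 and 8.59 in flight. The highest flight array, at 8.59, thus lay under the lowest ground array, at 8.80.

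In WT, the mean of CLN1 was 9.04 ± 0.28 log2 (SD, n = 3) on the ground and 8.10 ± 0.27 (n = 3) in flight, a difference of −0.95 (SE 0.18, 95% interval −1.34 to −0.55), or 1.93-fold lower. This difference did not pass the test across all genes (limma, adjusted p = 0.0641). The 3′ minus 5′ difference was 1.18 ± 0.02 (SD, n = 3) in WT flight against 1.09 ± 0.05 (n = 3) on WT ground, and with it as a covariate the CLN1 difference was −0.98 (adjusted p = 0.233). Over 15 other settings the adjusted p of CLN1 ran from 0.00737 to 0.314, and it passed with median centring (0.0384), with array weights (0.00737), without WT ground replicate 3 (0.0481) and without 4 flight arrays (0.0304), namely WT replicate 3, FLO1 replicate 1 and FLO8 replicates 2 and 3. Those 4 were named from earlier results of these data, and FLO1 replicates 1 and 2 lie equally far from their mean. With array weights 598 of all 5449 genes passed, and without the 4 arrays 464, against 8 in the main setting. In such bulk cultures, fewer cells passing Start and less transcript in each such cell cannot be told apart.

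The other strains, whose values led to the choice of these genes, showed differences of the same sign. With FLO1 overexpressed, CLN1 stood at 9.16 ± 0.18 log2 (SD, n = 3) on the ground and 7.86 ± 0.11 (n = 2) in flight, a difference of −1.30 (SE 0.21). In the FLO8 strain it stood at 9.42 ± 0.26 (n = 3) and 8.55 ± 0.04 (n = 3), a difference of −0.86 (SE 0.18). Averaged over the 3 strains the flight difference of CLN1 was −1.04 (SE 0.11), or 2.05-fold lower. Ordered by mean level, the 3 ground groups came first (FLO8, FLO1, WT), each overlapping the next of the 3, followed by FLO8 flight, which overlapped neither WT ground before it nor WT flight after it, and then by WT flight and FLO1 flight, which overlapped each other. The share of all genes with such gaps was not counted, and nothing is read from the order.

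CLN2 (YPL256C) behaved like CLN1 on a smaller scale. It read 9.06, 9.12 and 9.07 log2 on WT ground arrays and 8.66, 8.59 and 8.12 on WT flight arrays. For the FLO1 strain the readings were 9.27, 9.34 and 9.51 on the ground and 8.71 and 8.59 in flight, and in the FLO8 strain 9.49, 9.45 and 9.38 on the ground and 9.004, 8.69 and 8.57 in flight. The highest of the 8 flight arrays (9.004) and the lowest of the 9 ground arrays (9.06) lay close together but did not cross, although they belong to different strains.

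The WT flight difference of CLN2 was −0.62 log2 (SE 0.16, 95% interval −0.96 to −0.29; 9.08 ± 0.03 on the ground and 8.46 ± 0.29 in flight, SD, n = 3 each), or 1.54-fold lower, and it did not pass (limma, adjusted p = 0.155). It passed with array weights (0.0224) and without the same 4 arrays (0.0222), among settings that ran up to 0.505. In the FLO1 and FLO8 strains the CLN2 differences were −0.72 (SE 0.18) and −0.69 (SE 0.16), and the average over strains was −0.68 (SE 0.09). The group means ran from FLO8 ground (9.44) through FLO1 ground (9.37), WT ground (9.08), FLO8 flight (8.75) and FLO1 flight (8.65) to WT flight (8.46). WT ground was the group that overlapped neither of its neighbours. How many of all genes show such gaps between groups was not counted, so nothing is read from this order.

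**Figure D1:**
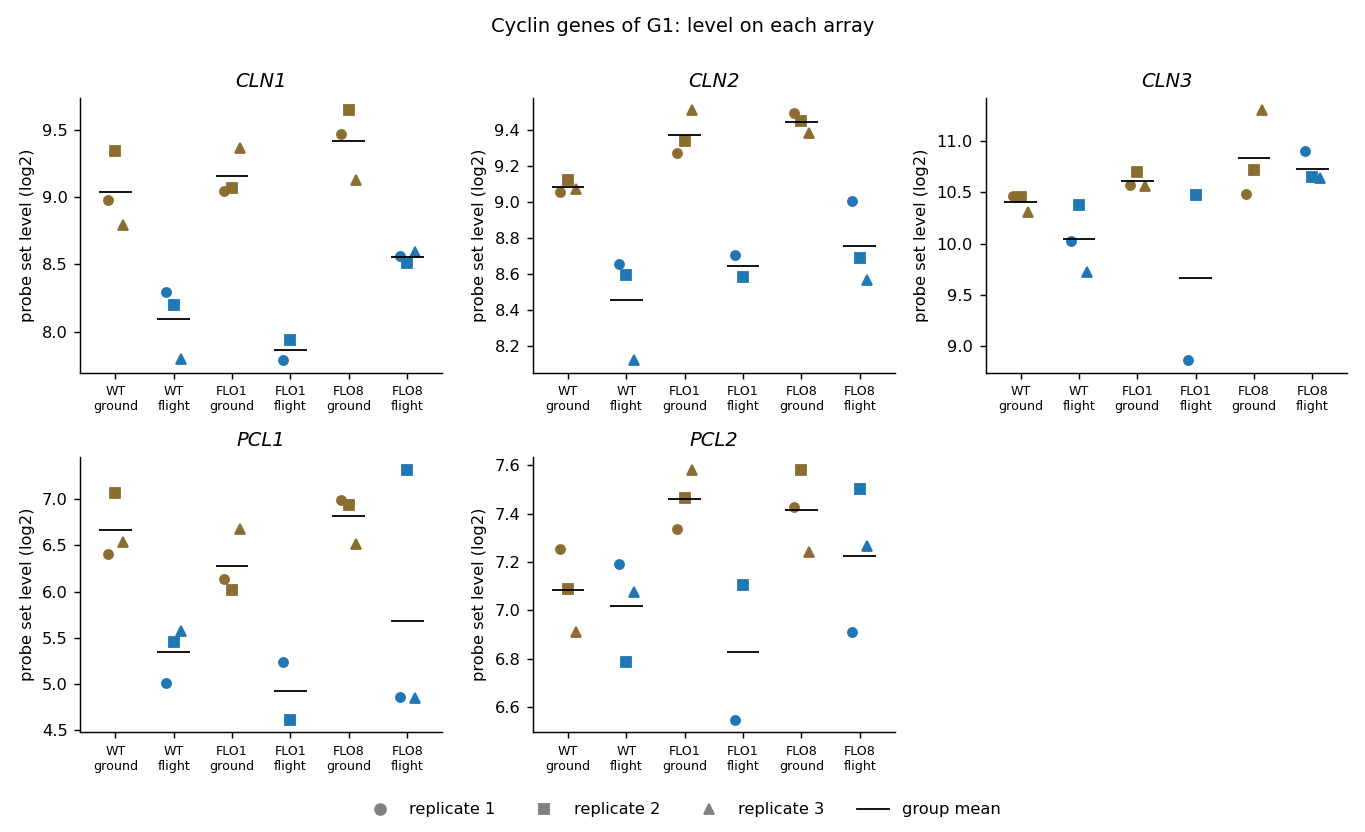
Probe set level (log2) of the 5 G1 cyclin genes on each of the 17 arrays, by strain and condition, with brown symbols for ground, blue for flight (microgravity), symbol shapes for the replicate number and a line at the group mean. For CLN1 all flight arrays (at most 8.59) lie under all ground arrays (at least 8.80), while PCL1 has 1 flight array of the FLO8 strain at 7.32, above all others.

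PCL1 (YNL289W), a G1 cyclin of the kinase Pho85 that acts on cell shape and budding, had a large flight difference and a large spread. It read 6.41, 7.06 and 6.54 log2 on WT ground arrays and 5.01, 5.46 and 5.57 on WT flight arrays. In the FLO1 strain it read 6.14, 6.01 and 6.68 on the ground and 5.24 and 4.61 in flight, the last value close to the background level of 4.56. In the FLO8 strain the ground arrays read 6.996, 6.94 and 6.51, and the flight arrays split, with replicates 1 and 3 at 4.86 and 4.85 and replicate 2 at 7.32, the highest PCL1 reading of the series.

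The WT flight difference of PCL1 was −1.32 log2 (SE 0.50, 95% interval −2.38 to −0.26) and did not pass (limma, adjusted p = 0.357). It passed with array weights (0.00947) and without the same 4 arrays (0.0101), where far more of all genes passed, as given for CLN1. Other settings ran up to 0.710, with 0.567 under the 3′ minus 5′ covariate. The SE holds a spread pooled over all groups: the SD was 0.35 on WT ground, 0.30 in WT flight and 1.42 in FLO8 flight. The differences in the FLO1 and FLO8 strains were −1.35 (SE 0.55) and −1.14 (SE 0.50). Without FLO8 microgravity replicate 2 the FLO8 difference was −1.96, and without replicate 1 or 3 it was −0.73 or −0.72, so single arrays moved it by more than 1.5 times. That array also lay farthest of all from its group mean over all genes (0.58 log2, root mean square).

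PCL2 (YDL127W), the partner of PCL1, differed little in WT, where ground arrays read 6.91 to 7.25 log2 and flight arrays 6.79 to 7.19. Its WT flight difference was −0.06 (SE 0.19, 95% interval −0.47 to 0.34; limma, adjusted p = 0.958), and the sign turned in 3 of 15 other settings. The FLO1 strain read 7.33, 7.47 and 7.58 on the ground and 6.55 and 7.10 in flight, a difference of −0.64 (SE 0.21) that was −0.36 without flight replicate 1 and −0.02 with the 3′ minus 5′ covariate. In the FLO8 strain the difference was −0.19 (SE 0.19), and the groups overlapped.

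CLN3 (YAL040C), the cyclin that acts first at Start, lay lower in flight in the FLO1 strain mainly through 1 array. It read 10.57, 10.70 and 10.56 log2 on the ground in that strain, and 8.87 and 10.47 on flight replicates 1 and 2. The difference was −0.94 (SE 0.35), and it was −0.14 without flight replicate 1, −1.74 without flight replicate 2 and −0.24 with the 3′ minus 5′ covariate. In WT it read 10.46, 10.46 and 10.31 on the ground and 10.03, 10.38 and 9.72 in flight, overlapping groups with a difference of −0.36 (SE 0.32; limma, adjusted p = 0.819) that was −0.21 without WT microgravity replicate 3 and −0.11 with the covariate. In the FLO8 strain the ground arrays read 10.48 to 11.30 and the flight arrays 10.64 to 10.91, and the difference of −0.10 (SE 0.32) turned sign in 4 of 15 other settings.

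The transcription factor genes had differences of the opposite sign to CLN1 and CLN2. A difference above 0 was common: in WT 41.1% of all genes lay below 0, and their median was 0.06 log2. SWI6 (YLR182W), which encodes the subunit shared by SBF and MBF, read 7.44, 7.29 and 8.31 log2 on WT ground arrays and 7.79, 8.86 and 7.57 on WT flight arrays, with 1 high array in each group and overlap between them. Its WT difference was 0.39 (SE 0.37, 95% interval −0.41 to 1.19; limma, adjusted p = 0.840), and it turned to −0.00 without WT microgravity replicate 2. In the FLO1 strain the ground arrays read 7.75, 7.80 and 7.54 and the flight arrays 7.95 and 8.89, a difference of 0.72 (SE 0.42) that was 1.19 without flight replicate 1, 0.25 without flight replicate 2 and 1.23 with the 3′ minus 5′ covariate. In the FLO8 strain the difference was 0.50 (SE 0.37), and it was 0.25 without ground replicate 1 and 0.78 without ground replicate 3.

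MBP1 (YDL056W), the DNA-binding subunit of MBF, read 8.32 to 8.75 log2 on WT ground arrays and 8.33 to 9.22 on WT flight arrays, with a difference of 0.15 (SE 0.22; limma, adjusted p = 0.903) that turned to −0.14 without WT microgravity replicate 2. The FLO1 strain read 8.45, 8.43 and 8.14 on the ground and 8.85 and 8.80 in flight, which did not overlap, and differed by 0.48 (SE 0.24). SWI4 (YER111C), the DNA-binding subunit of SBF, had differences of 0.23 (SE 0.27; limma, adjusted p = 0.867) in WT, 0.29 (SE 0.30) in the FLO1 strain and 0.22 (SE 0.27) in the FLO8 strain, with overlap in all 3. Its flight arrays in the FLO1 strain stood apart from each other, at 8.09 and 6.98, and the difference there was −0.26 without flight replicate 1.

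Neither inhibitor gene passed in WT. WHI5 (YOR083W), which encodes the inhibitor of SBF, read 7.10 to 8.14 log2 over the 8 flight arrays and 7.27 to 7.84 over the 9 ground arrays. Its difference was −0.10 in WT (SE 0.23, 95% interval −0.58 to 0.38; limma, adjusted p = 0.946), −0.40 in the FLO1 strain (SE 0.25) and 0.11 in the FLO8 strain (SE 0.23). In the FLO1 strain the flight arrays, at 7.10 and 7.54, lay below the ground arrays, at 7.77, 7.75 and 7.64, and the difference was −0.17 without flight replicate 1 and −0.62 without flight replicate 2. SIC1 (YLR079W), which encodes the inhibitor of B-type cyclin kinase, read 9.34 to 10.76 in flight and 9.97 to 10.55 on the ground, with differences of −0.16 (SE 0.29, 95% interval −0.78 to 0.46; limma, adjusted p = 0.928), −0.22 (SE 0.32) and −0.01 (SE 0.29) in the same order. For both genes the WT difference turned sign in 3 of 15 other settings, and the intervals lie on both sides of 0.

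**Figure D2:**
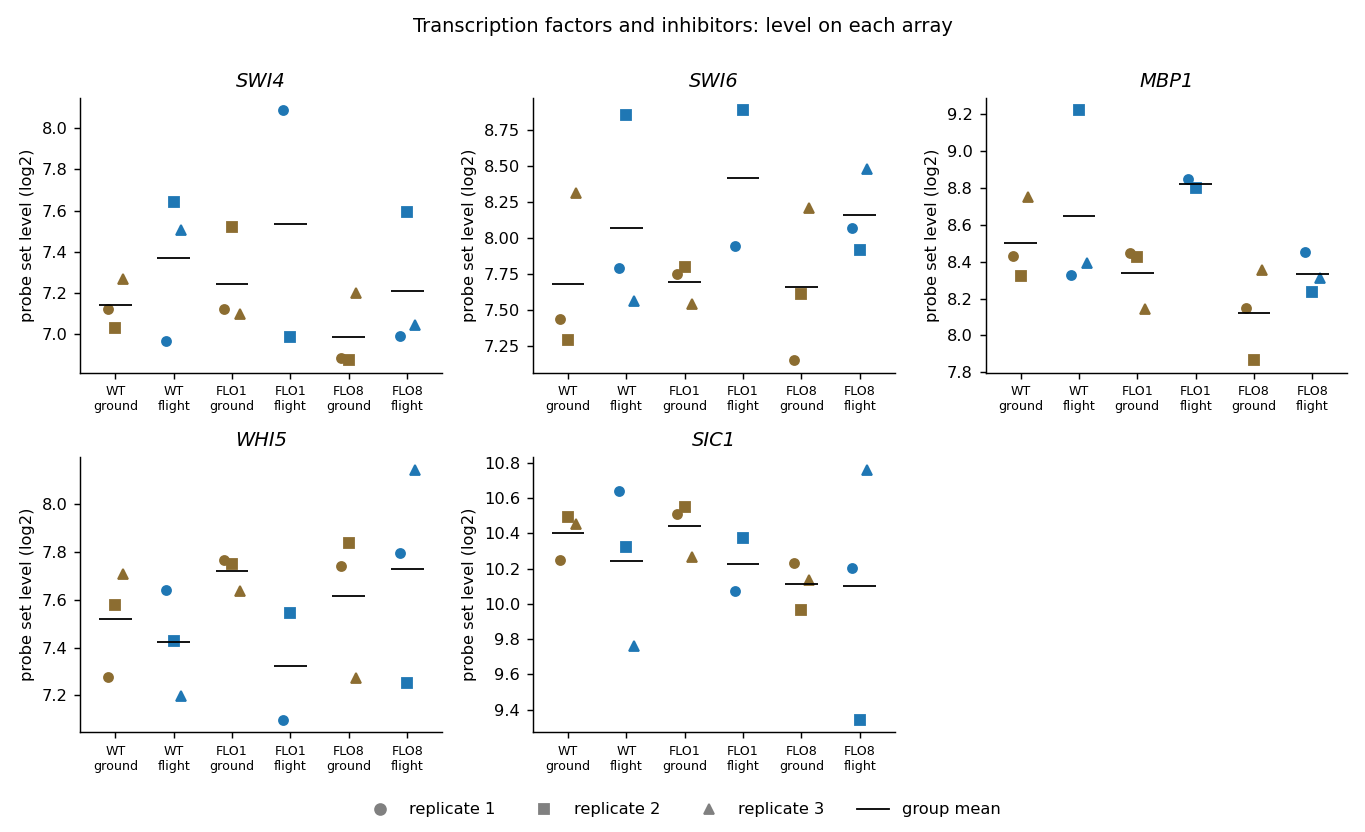
Probe set level (log2) of the transcription factor genes SWI4, SWI6 and MBP1 and of the inhibitor genes WHI5 and SIC1 on each array, drawn as for the cyclin genes. In WT the flight and ground arrays of all 5 genes overlap, and SIC1 in FLO8 flight spans 9.34 to 10.76.

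By counts, 0 of the 10 genes passed in WT flight against ground by limma, where 0.147% of all genes did. At an unadjusted p under 0.05 there were 3 (CLN1, CLN2 and PCL1), against 10% of all genes. Fitted to the WT arrays alone, 0 of all genes passed by limma. The adjusted p was then 0.314 for CLN1, 0.428 for CLN2 and 0.200 for PCL1. The flight arrays lay wholly below the ground arrays for 3 of the 10 in WT (5.51% of all genes), for 6 in the FLO1 strain (CLN1, CLN2, CLN3, PCL1, PCL2 and WHI5; 18.5%) and for 2 in the FLO8 strain (4.39%), and wholly above for 2, SWI6 and MBP1, in the FLO1 strain (22.9%). CLN1 and CLN2 were below in each of the 3 strains, as were 0.679% of all genes, and over all strains jointly all 8 flight arrays lay below all 9 ground arrays for CLN1, CLN2 and 0.312% of all genes. In the contrasts that chose the members, 1 gene, CLN1, was called in the FLO1 strain (0.0367% of all genes) and 0 were called in the FLO8 strain (0%). Nothing is read from these last counts. The same holds for the separation counts above that use FLO1 or FLO8 arrays, since values from those arrays led to the choice of the genes.

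**Figure D3:**
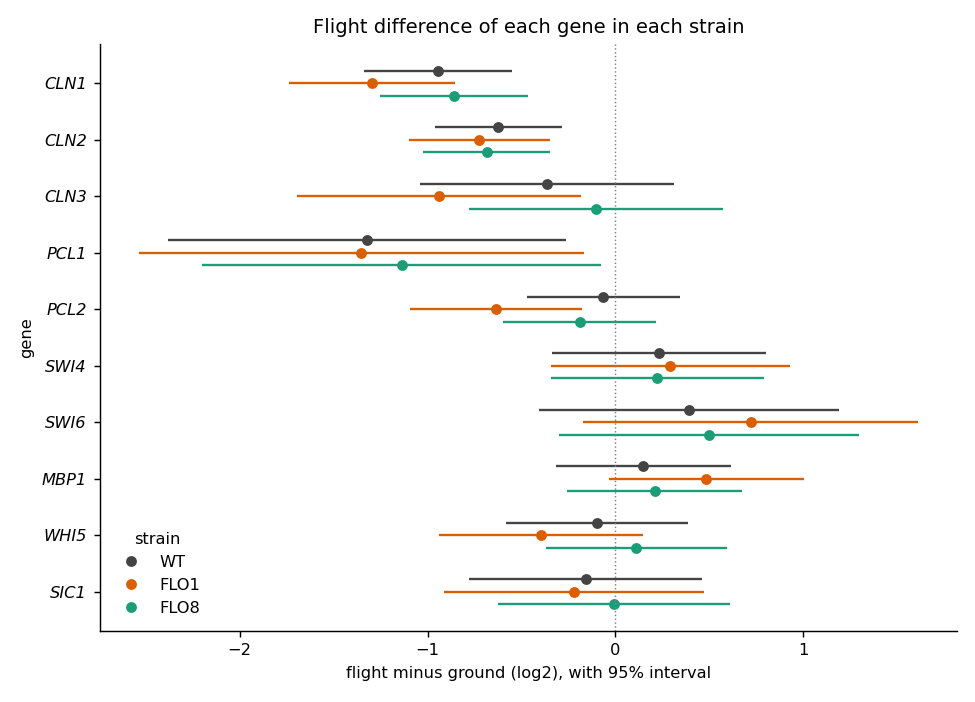
Flight minus ground difference (log2) of each of the 10 genes in WT, the FLO1 strain and the FLO8 strain; points are fitted differences and lines their 95% intervals. The points of CLN1, CLN2 and PCL1 lie below 0 in each strain and those of SWI4, SWI6 and MBP1 above 0; the FLO1 and FLO8 values are descriptions.

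The strain comparisons ask whether overexpressing FLO1, or the FLO8 construct, came with other levels of these genes. They use the FLO1 or FLO8 arrays whose values led to the choice of the genes, so their values are descriptions without p, and nothing is read from their counts of calls. On the ground CLN1 differed between the FLO1 strain and WT by 0.12 log2 (SE 0.18), CLN2 by 0.29 (SE 0.16) and PCL2 by 0.38 (SE 0.19). There 0 of the 10 passed by limma (0.0367% of all genes did), and 0 had an unadjusted p under 0.05 (1.38%).

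The FLO8 strain on the ground differed from WT by 0.37 log2 in CLN1 (SE 0.18), by 0.36 in CLN2 (SE 0.16) and by 0.42 in CLN3 (SE 0.32). The ground arrays of CLN2 did not overlap (at least 9.38 in the FLO8 strain, at most 9.12 in WT), and those of CLN1 did. How many of all genes separate in this way was not counted, so nothing is read from it. By limma 0 of the 10 passed (0.0367% of all genes), and 1, CLN2, had an unadjusted p under 0.05 (3.56%).

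In flight the FLO1 strain differed from WT by −0.23 log2 in CLN1 (SE 0.21) and by 0.19 in CLN2 (SE 0.18). CLN3 differed by −0.37 (SE 0.35), and by −1.18 without FLO1 microgravity replicate 2, which leaves only the low array, and by 0.43 without replicate 1. By limma 0 of the 10 passed (0.0367% of all genes), and 0 had an unadjusted p under 0.05 (7.76%).

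Between the FLO8 strain and WT in flight the difference was 0.46 log2 in CLN1 (SE 0.18) and 0.69 in CLN3 (SE 0.32). For both genes the 3 FLO8 arrays lay above the 3 WT arrays (at least 8.51 against at most 8.30 for CLN1, at least 10.64 against at most 10.38 for CLN3). The share of all genes with such a separation was not counted here either, and nothing is read from it. By limma 0 of the 10 passed (0.0367% of all genes), and these 2 had an unadjusted p under 0.05 (9.98%).

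The difference in flight response between strains holds the flight values that chose the members, so it too is a description. For CLN1 the response in the FLO1 strain minus that in WT was −0.35 log2 (SE 0.28), and in the FLO8 strain minus WT it was 0.09 (SE 0.26). For CLN2 these were −0.10 (SE 0.24) and −0.06 (SE 0.22). In both, 0 of the 10 passed by limma, as did 0% of all genes, and 0 had an unadjusted p under 0.05 (3.51% and 2.95% of all genes). Nothing is read from these counts, which do not show that the strains respond alike.

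Flight and ground arrays form separate clusters for CLN1, so correlations with it were taken within each condition and are given as descriptions, since arrays of a group share strain and condition. Within the 9 ground arrays the Pearson r with CLN1 was 0.71 for PCL1, 0.69 for CLN2, 0.66 for PCL2, 0.33 for WHI5 and 0.14 for CLN3. Within the 8 flight arrays it was 0.79 for CLN3, 0.70 for WHI5, 0.56 for CLN2, 0.53 for PCL2 and 0.17 for PCL1, so the order of the members differed between the conditions. MBP1 and SWI4 had r below 0 in both, with −0.96 and −0.73 on the ground and −0.46 and −0.49 in flight. For SWI6 r was −0.62 on the ground and 0.10 in flight, and for SIC1 it was −0.59 and 0.17. Over all 17 arrays r with CLN1 was 0.90 for CLN2 and 0.73 for PCL1, which partly restates the flight difference.

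The genes most like CLN1 over the 17 arrays, among 5381 other genes above background, were CLB6 (r = 0.94), a B-type cyclin of S phase, PSA1 (0.94), which makes GDP-mannose, YOX1 (0.92), a homeodomain repressor, HO (0.92), the mating type endonuclease gene, and MCD1 (0.91), a cohesin subunit. Within the ground arrays alone their r ran from 0.39 (MCD1) to 0.93 (CLB6), and within the flight arrays from 0.65 (CLB6) to 0.85 (MCD1). For CLN2 they were PSA1 (0.92), MRI1 (0.89), HO (0.88), CLB6 (0.88) and TRM10 (0.87), of which 3 also stood in the list for CLN1. Their r with CLN2 ran from 0.30 (TRM10) to 0.56 (MRI1) within the ground arrays. Within the flight arrays it ran from 0.54 (CLB6) to 0.86 (MRI1). The values over all 17 arrays thus partly restate the flight difference. CLB6 differed between flight and ground by −0.69 log2 in WT, −0.77 in the FLO1 strain and −0.66 in the FLO8 strain, and HO by −1.10, −0.98 and −0.77.

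Lists of neighbouring genes place the members in their pathway. Of 47 measured targets of SBF and MBF, 0 passed in any strain by limma. At an unadjusted p under 0.05 in WT 6 were lower and 1 higher, against 10% of all genes in either direction. Their median flight difference was −0.15 log2 in WT, 0.06 in the FLO1 strain and −0.08 in the FLO8 strain, against 0.06, 0.01 and 0.01 over all genes. Below 0 lay 63.8%, 46.8% and 66% of the list, against 41.1%, 48.6% and 48.2% of all genes. The 4 targets with the largest average difference were all lower: RNR1, the large subunit of ribonucleotide reductase, by −1.08 (SE 0.25), YOX1 by −0.95 (SE 0.16), CLB6 by −0.71 (SE 0.12) and TOS6, a cell wall protein gene, by −0.69 (SE 0.22). In WT alone their adjusted p by limma ran from 0.178 (RNR1) to 0.468 (TOS6).

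Other regulators of Start showed no common direction. Of 17 measured, 7 lay below 0 in WT, 9 in the FLO1 strain and 7 in the FLO8 strain, and 0 passed by limma. At an unadjusted p under 0.05 in WT 2 were lower and 0 higher, near the 10% of all genes. YOX1 (given above) and NRM1, a corepressor of MBF, lay lower on average (NRM1 by −0.47, SE 0.14), while SRL3, also called WHI7 and related to WHI5, lay higher by 0.62 (SE 0.24) and AZF1, an activator of CLN3, by 0.45 (SE 0.15). The SRL3 value rests mostly on the FLO1 strain (1.20 there, 0.16 in WT and 0.51 in the FLO8 strain).

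Of 6 B-type cyclins, CLB6, CLB1 and CLB2 lay lower on average, by −0.71 (SE 0.12), −0.48 (SE 0.15) and −0.38 (SE 0.14) log2, and CLB4 stood at 0.19 (SE 0.16). The list median was −0.14 in WT, −0.15 in the FLO1 strain and −0.17 in the FLO8 strain, and 0 passed by limma. At an unadjusted p under 0.05 in WT 2 were lower (10% of all genes in either direction). Of 6 genes of the SCF ubiquitin ligase, which destroys Cln and Sic1 proteins, 0 passed by limma. In WT 1 was higher at an unadjusted p under 0.05 (10% of all genes in either direction). In that list GRR1, the F-box protein that recognises Cln1 and Cln2, stood higher in flight by 0.46 on average (SE 0.10; WT adjusted p = 0.197) and CDC4, which recognises Sic1, by 0.25 (SE 0.11).

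Of 9 genes for the kinase Pho85 and its other cyclins, 0 passed by limma, and 0 had an unadjusted p under 0.05 in WT (10% of all genes). PCL5 lay lower by −0.26 log2 on average (SE 0.09), with flight below ground arrays in each strain, and PCL7 by −0.43 (SE 0.13). The 11 genes of quiescence and stationary phase, in which cells rest before Start, had medians of −0.03, −0.02 and −0.24 in WT, the FLO1 and the FLO8 strain. By limma 0 of them passed, and 0 had an unadjusted p under 0.05 in WT (10% of all genes). Among them RIM15, the kinase of entry into quiescence, stood at 0.26 on average (SE 0.13) and SNO1, of vitamin B6 synthesis in stationary phase, at −0.38 (SE 0.29), with opposite signs in the FLO1 (0.71) and FLO8 (−1.08) strains.

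**Figure D4:**
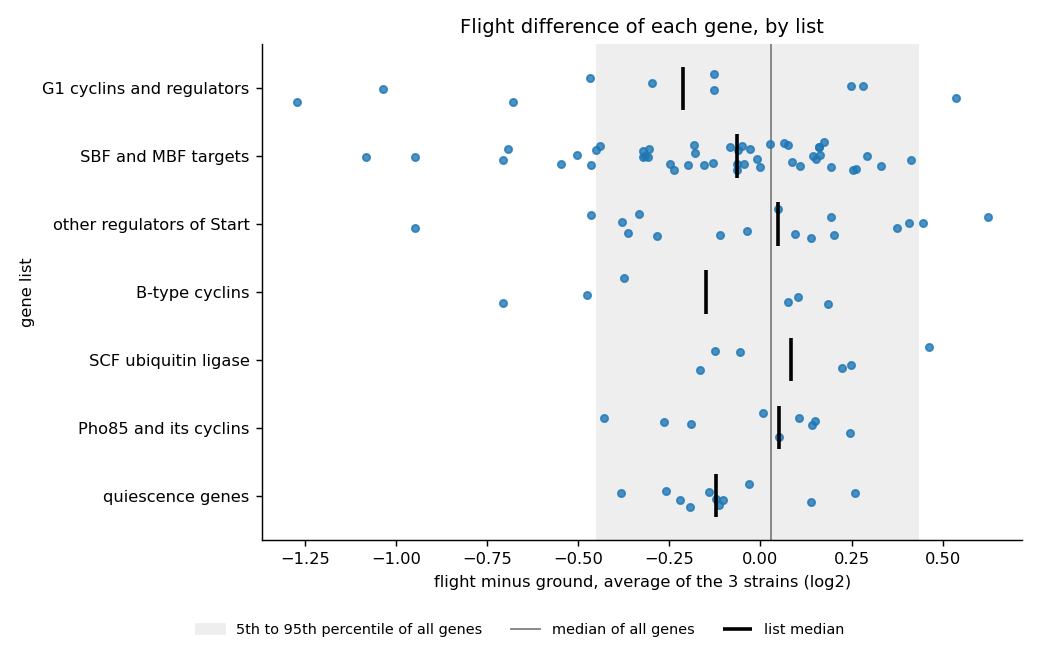
Flight minus ground difference (log2, average of the 3 strains with equal weight) of each gene in the list of the 10 members and in 6 lists of neighbouring genes; black bars are list medians, the grey line is the median of all genes (0.03) and the band spans their 5th to 95th percentile (−0.45 to 0.43). Of the members, PCL1 (−1.27), CLN1 (−1.04), CLN2 (−0.68) and CLN3 (−0.47) lie left of the band and SWI6 (0.54) right of it, and the bars of all lists lie inside it. CLN3 lies close to the edge, and its FLO1 difference is −0.14 without FLO1 flight replicate 1. For SWI6 the WT difference is −0.00 without WT flight replicate 2. The averages hold the FLO1 and FLO8 values that led to the choice of the members, so the places of CLN1 and CLN2 are descriptions.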

How the data were processed

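The authors deposited log2 levels per probe set of Affymetrix Yeast Genome 2.0 arrays. The submitters' processing notes name affy 1.26.1, RMA and MAS5, without the role of MAS5. They were not normalized again (medians of S. cerevisiae probe sets 9.84 to 9.94). Probe sets were named through the platform annotation; for 47 of 5449 genes with several probe sets the brightest was kept, and 12 symbols were updated.

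A limma 3.58.1 model (R 4.3.3) held 1 mean for each of the 6 groups over 17 arrays (11 residual degrees of freedom; eBayes without trend). P-values are two-sided and adjusted by Benjamini-Hochberg over all 5449 genes, with a threshold of 0.05; ± is the SD and SE belongs to fitted differences. The number of arrays limits precision. The code was tested on simulated data.

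The members and lists were chosen with earlier results of these data known. Named outside the members are up to 4 genes of each list with the largest average flight difference, above background, and the 5 genes most correlated with CLN1 and with CLN2; the 17 genes whose flight arrays lie below all ground arrays were named after their values were seen. Of the listed genes, 2 were not analysed here, and 5 stand in several lists; 1 further list is not reported here. No sequences are shown. Alternatives were 9 settings and each array left out.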

Additional observations from a re-analysis of the deposited data

How the results depend on the processing

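The number of the 10 genes called by limma was recomputed under 9 settings and without each array compared. For WT flight against ground, 0 in the main setting became 1 with median centring (CLN1, beside 13 of all genes against 8), 3 with array weights and 3 without the 4 arrays named above (CLN1, CLN2 and PCL1 both times, beside 598 and 464 of all 5449 genes against 8), and 0 to 1 without single arrays (1 without WT ground replicate 3, CLN1, beside 14 of all genes). The remaining counts lie in comparisons that use the values that chose the genes, and nothing is read from them. For FLO1 flight, 1 became 0 under a replicate block, with only the arrays compared, with array weights, with a trend, with the 3′ minus 5′ covariate and without those 4 arrays; without single arrays it was 0 to 3, with 3 without FLO1 microgravity replicate 2 (beside 510 of all genes against 2) and 0 without any other array of that comparison. For FLO8 flight, 0 became 4 with array weights (beside 748 of all genes against 0) and 0 to 1 without single arrays (1 without FLO8 microgravity replicate 2, PCL1, beside 1 of all genes). Against WT, 0 became 1 with array weights for the FLO8 strain on the ground (beside 645 of all genes against 2) and 0 to 1 without single arrays for the FLO1 strain in flight (1 without FLO1 microgravity replicate 2, beside 396 of all genes against 2). The other 4 comparisons kept 0 in all settings. Where an array was left out, a lone remaining array is assumed to vary like the other groups. The cause of these changes was not tested; the iteration for array weights stopped before full convergence.

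Replicate numbers showed no common pairing of ground and flight arrays: the correlation of deviations ran from −0.38 to 0.35 over 8 same-numbered pairs. It was −0.38 to −0.34 in WT, −0.05 and 0.18 in the FLO1 strain, and −0.05, 0.34 and 0.35 in the FLO8 strain. Of the flight arrays, 3 of 8 correlated best with their own number. So few pairs cannot show whether the numbers pair cultures. Among the members, the block changed no call other than that of CLN1 in the FLO1 strain. Over all genes, calls with the block were 3 against 8 in WT flight and 0 against 2 in FLO1 flight. Over 132 alternative values of CLN1, CLN2 and PCL1 in the flight comparisons 0 changed sign, and over 308 of the other 7 genes 25 did. In these and the other sign counts, several settings leave a member's difference as it was and cannot turn its sign. They are only the arrays compared, a trend, genes below background left out and the mean of the probe sets. In WT and the FLO8 strain the replicate block does so too. Leaving out arrays cannot turn the sign where all flight arrays lie below all ground arrays. That holds for CLN1 and CLN2 in each strain, and for PCL1 in WT and the FLO1 strain. The count of 0 in 132 was thus largely fixed in advance. The 132 values also include the FLO1 and FLO8 values that led to the choice of CLN1 and CLN2. PCL1 in flight, at 4.61 to 5.57 log2 on 7 arrays, lies near background, which limits the size of its difference.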

Other observations

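Over all strains jointly, 17 genes had all 8 flight arrays below all 9 ground arrays, a count looked up after the data were examined. Beside CLN1 and CLN2 they were CLB6 of the lists above, the cell wall genes EGT2 and SCW11, the histone gene HTB2, the ribosomal protein genes RPL12A, RPL26B, RPL31B, RPL39, RPL8A, RPL9A and RPS22A, and GCG1, MLF3, TRM10 and YAR010C. The gap between the lowest ground and the highest flight array was 0.21 log2 for CLN1, 0.05 for CLN2, 0.20 for EGT2 and 0.48 for RPL12A. The average flight difference of HTB2, which encodes histone H2B and is transcribed in S phase, was −0.74.

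Among the a-specific genes, AGA2, a subunit of a-agglutinin, differed by −1.39 log2 in WT flight (limma, adjusted p = 0.104), −1.15 in the FLO1 strain and −0.08 in the FLO8 strain. Among the alpha-specific genes, MF(ALPHA)2, a pheromone gene, differed by −0.90 (adjusted p = 0.448), −1.13 and −0.47 in the same order. STE3, the receptor for a-factor, stood at −0.23, −0.81 and 0.55. By limma 0 of the 4 alpha-specific and 0 of the 6 a-specific genes passed in WT. At an unadjusted p under 0.05 there 1 and 2 of them were lower, against 10% of all genes in either direction.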
